A study of Mus musculus with 16 samples.

Results

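Collagens, elastic fibre proteins and their neighbours in the extracellular matrix were followed as 34 named genes, chosen by symbol, of the 24011 gene symbols in a table of RNA-seq read counts from mouse aorta and liver. All 34 symbols were found in the table. They comprise 5 fibrillar collagen chains, 5 chains of basement membrane and network collagens, 3 chains of collagen VI, 6 elastic fibre genes, 2 crosslinking enzymes, 3 small leucine-rich proteoglycans, 6 adhesive and matricellular proteins, 1 calcification inhibitor and 3 ADAMTS proteases. The libraries fall into 4 groups of 4: aorta with E2, aorta with vehicle, liver with E2 and liver with vehicle. Every group came from wild-type female C57BL/6 mice whose ovaries had been removed when they were 6 to 7 weeks old, with tissue taken 1 week after surgery. Aortas, or fragments of the liver's major lobe, were held in DMEM outside the body for 4 h with 10 nM 17β-estradiol (E2, the main active natural estrogen) or with ethanol as vehicle, so the vehicle groups share the ovariectomy and the time in culture.

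Part of the libraries was made from 50 ng of RNA with an Ovation amplification kit and the rest by poly-A selection from 600 ng of RNA of a single aorta or liver fragment. The series text describes replicates that each hold tissue from 4 mice. Each library carries a suffix, o1, o2, n1 or n2, that no label explains, so a library's group was taken from its tissue and treatment, and values below are listed in the order o1, o2, n1, n2 unless stated. Whether libraries of a group came from separate animals is not given for each one, so p-values measure the spread between these libraries, which may be partly technical.

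The extracellular matrix gives a tissue its shape and its mechanical behaviour. In the wall of the aorta, smooth muscle cells and adventitial fibroblasts lay down elastin on a scaffold of fibrillin microfibrils, the lysyl oxidases crosslink it into lamellae, and fibrillar collagens bear the load at high stretch. The healthy liver holds little matrix: stellate cells and portal fibroblasts supply its collagens, while hepatocytes secrete plasma fibronectin.

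Reads assigned to genes numbered 6471319 to 16905441 per library in aorta with E2, 6042073 to 19823982 in aorta with vehicle, 3896733 to 11796977 in liver with E2 and 5210693 to 13078032 in liver with vehicle. The 34 genes together took 2.84% to 3.39% of these reads in aorta with E2, 2.50% to 3.57% in aorta with vehicle, 0.285% to 0.696% in liver with E2 and 0.493% to 0.649% in liver with vehicle. The 45S ribosomal precursor Rn45s took 25.7% to 34.5% of reads in the 4 liver libraries with the letter o and at most 6.20% elsewhere. Levels are given as CPM, read counts per 1e+06 reads of a library size scaled by TMM factors, which counter such shifts in composition. Smooth muscle markers summed to 10098 to 26947 CPM in aorta with E2 and 10662 to 16767 CPM in aorta with vehicle, against 188 to 438 CPM in liver with E2 and 176 to 485 CPM in liver with vehicle. The sums of 8 hepatocyte markers were 65.6 to 401 CPM in aorta with E2 and 106 to 615 CPM in aorta with vehicle, against 73550.4 to 207724 CPM in liver with E2 and 76150 to 133030 CPM in liver with vehicle, so both tissue labels fit their markers. The aorta library with vehicle and suffix n2 stood apart, with 174 CPM of lymphocyte markers against 3.91 to 21.7 CPM in the other vehicle aortas. The heat map of all levels shows the main contrasts of the 34 genes in every library.

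**Figure D1:**
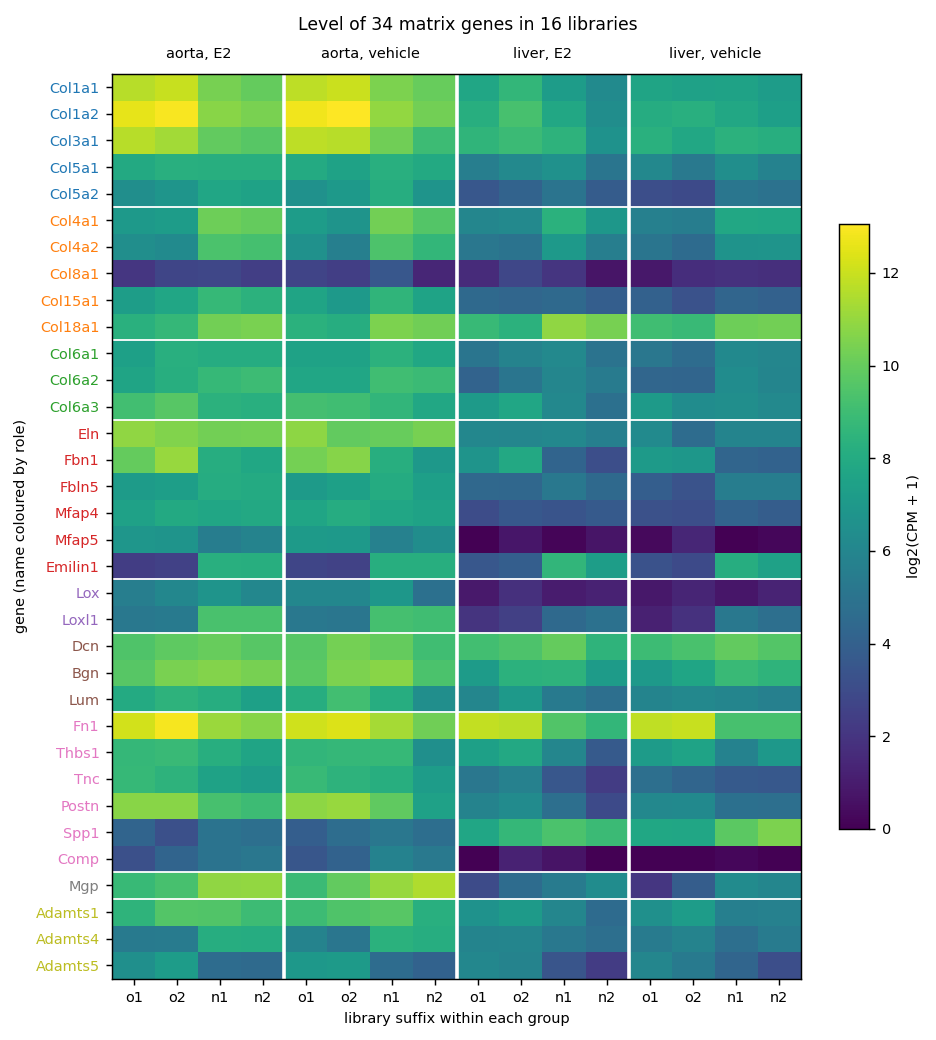
Level of each of the 34 genes (rows, grouped and coloured by role) in each of the 16 libraries (columns, by group and suffix), as log2(CPM + 1). The aorta columns are brighter for most rows, Spp1 is brighter in liver, and several rows such as Emilin1, Loxl1, Col4a1 and Fbn1 change between o and n libraries in both tissues.

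Most of the 34 genes were more abundant in aorta than in liver. Among vehicle libraries, 26 of the 34 were higher in aorta, Spp1 was lower, and 7 did not pass the threshold, which was an adjusted p under 0.05 and an absolute log2 fold change over 1 by the quasi-likelihood test of edgeR, adjusted by Benjamini-Hochberg over 12607 genes. Of all 12607 genes, 24.1% were higher and 23.4% lower in aorta. Scaling libraries to total counts instead moved the calls over all genes to 4661 higher and 2025 lower, against 3032 and 2954, and those of the 34 to 30 higher and 1 lower. The median log2 fold change was 2.70 over the 34 genes and 0.05 over all genes tested. In bulk tissue, a difference in the number of cells of a type cannot be told apart from a difference in RNA per cell. Every one of the 34 passed the filter on low counts, but Comp, Mfap5 and Lox passed only through aorta, and such a gene had to differ.

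**Figure D2:**
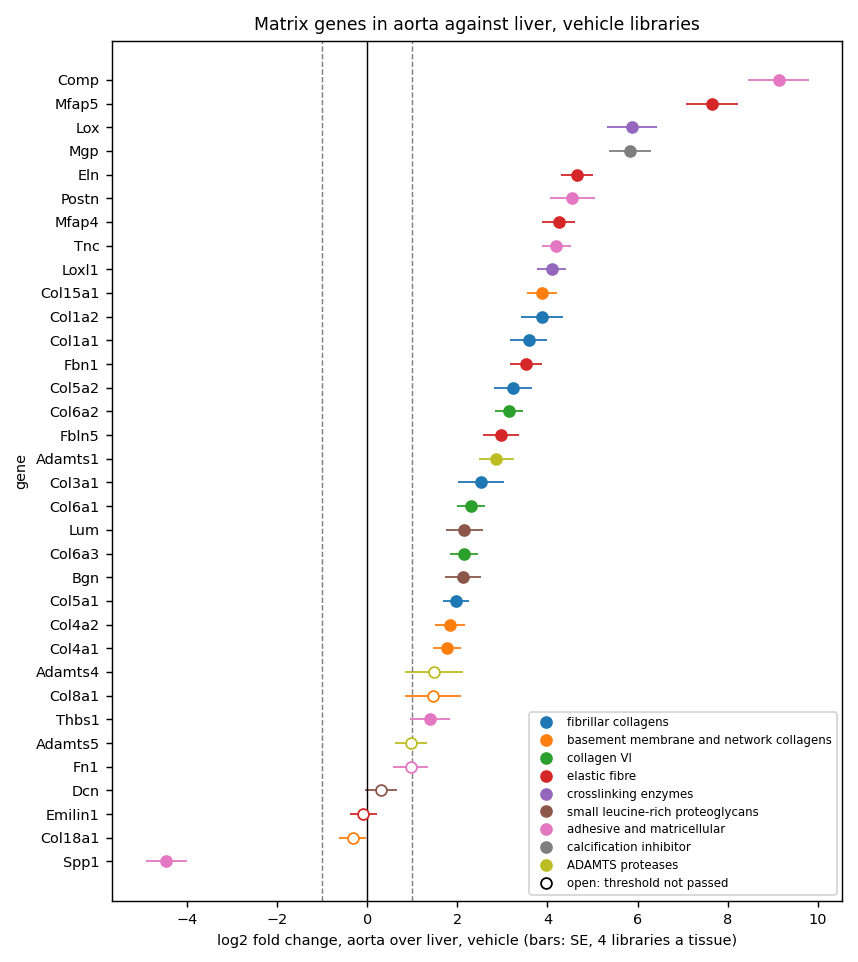
Log2 fold change of each gene, vehicle aorta over vehicle liver (points, with SE bars, 4 libraries a tissue), coloured by role. Filled points passed the threshold (dashed lines mark an absolute log2 fold change of 1); they run from -4.46 for Spp1 to 9.13 for Comp.

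Fibrillar collagens, which form the tensile fibres of connective tissue, were higher in aorta for 5 of 5 chains. Col1a1 and Col1a2 encode the chains of type I collagen. Col1a1 had 3451, 4137, 1422 and 1051 CPM in the vehicle aortas, against 197, 179, 183 and 149.9 CPM in the vehicle livers, a log2 fold change of 3.58 ± 0.41 (SE; adjusted p = 1.97e-05). Col1a2 had 7129, 8559, 1953 and 1258 CPM in vehicle aortas, against 272, 305, 227 and 163 CPM in vehicle livers, and a log2 fold change of 3.88 ± 0.47 (SE). For both chains each aorta library lay above every liver library. Col3a1, the type III collagen of distensible tissues, averaged 2103 ± 1476 CPM in aorta and 290.0 ± 44.2 CPM in liver with vehicle (SD, n = 4 each). Col5a1 and Col5a2, whose type V collagen helps to start fibrils and to set their width, had log2 fold changes of 1.98 ± 0.29 and 3.24 ± 0.42 (SE).

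For a gene called higher and a gene called lower in aorta, 100 bases upstream of a RefSeq transcript start are shown (build GRCm38.p6, both on the plus strand). They are those of Col1a2, at chr6:4505518-4505617, and of Spp1, at chr5:104435011-104435110. In the annotation used for exon lengths Col1a2 starts earlier, at chr6:4504814, so its stretch lies inside the gene as annotated there. Capitals mark the letters ATTGG, which are CCAAT on the other strand, the bases of the promoter element named the CCAAT box. The wider promoter window of Col1a2 holds a CCAAT box too, outside the bases printed, so the marked letters do not set the genes apart.
Col1a2: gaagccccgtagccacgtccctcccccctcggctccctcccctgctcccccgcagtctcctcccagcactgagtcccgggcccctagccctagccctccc
Spp1: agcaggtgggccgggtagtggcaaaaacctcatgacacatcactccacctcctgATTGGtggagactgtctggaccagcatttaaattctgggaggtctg
The Col1a2 stretch is 74% G or C and the Spp1 stretch 53%. RefSeq promoter windows, from 250 bases before to 50 after a start, were matched for 19 of the 34 genes, in 25 windows, and both strands were searched. The estrogen response element, GGTCA and TGACC with any 3 bases between them, matched in 0 of the 25 windows and in 0.07% of 32851 windows of all genes. Its shorter arm GGTCA matched in 5 of the 25 windows (20%), those of Postn, Col15a1, Emilin1, Col6a2 and Fbln5, and in 40.5% of all windows. GGGCGG, the GC box, matched in 14 windows (56%) and in 35.7% of all windows, and TATAAA in 6 (24%) and 13.6%. CCAAT matched in 8 of the 25 windows (32%) and in 37.4% of all windows. TGANTCA, the AP-1 element, matched in 1 window (4%) and in 7.81% of all windows, and GTCTAGAC, an element bound by SMAD proteins, in 0 and in 0.213%.

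Of the basement membrane and network collagens, 3 of 5 were higher in aorta: Col4a1 (1.78 ± 0.31), Col4a2 (1.84 ± 0.33) and Col15a1 (3.88 ± 0.33; log2 fold changes ± SE). Col4a1 and Col4a2 form the type IV collagen sheet under endothelium and around muscle cells. Without the batch term the log2 fold changes were 2.04 for Col4a1 (adjusted p = 0.171) and 2.18 for Col4a2 (adjusted p = 0.136), and neither passed. Col15a1, which links basement membranes to the fibres beside them, had 195, 127, 371 and 188 CPM in vehicle aortas, against 15.5, 8.63, 18.0 and 15.8 CPM in vehicle livers. The 2 tissues did not overlap for Col15a1. Col18a1, the source of endostatin, had 326, 279, 1423 and 1203 CPM in vehicle aortas and 534, 463, 1148 and 1257 CPM in vehicle livers, with overlapping libraries and a log2 fold change of -0.32 ± 0.30 (SE; adjusted p = 0.396). Col8a1, a short-chain collagen of vessel walls, was low in both tissues, at 5.55 ± 3.84 CPM in aorta and 2.01 ± 0.822 CPM in liver (SD, n = 4 each). Its log2 fold change of 1.45 ± 0.62 (SE) had an adjusted p of 0.0674.

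Col4a1 and Col4a2 lie head to head on chromosome 8, and the exons of their annotated transcripts share 22 bases on opposite strands at chr8:11312805-11312826 (build GRCm38.p6, given on the plus strand). The stretch is shown because no source used here gives the strand setting of the counting, and reads in this stretch then cannot be assigned to 1 gene. Capitals mark a GC box.
Col4a1 and Col4a2: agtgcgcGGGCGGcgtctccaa
The ratio of Col4a2 to Col4a1 counts was 0.505 to 0.673 in aorta with E2, 0.454 to 0.656 in aorta with vehicle, 0.399 to 0.572 in liver with E2 and 0.453 to 0.649 in liver with vehicle. The pair thus kept the same order in all 16 libraries. The ratio of Col1a2 to Col1a1 also stayed on 1 side of 1 in all 16 libraries, but moved with the suffix letter in aorta. It was 1.29 and 1.41 in the n libraries and 1.93 and 1.99 in the o libraries of aorta with E2, and 1.37 and 1.20 in the n libraries and 2.07 in both o libraries of aorta with vehicle. In liver with E2 the letters overlapped, at 1.56 and 1.11 in n and 1.40 and 1.58 in o. In liver with vehicle the ratio was 1.24 and 1.09 in n and 1.38 and 1.70 in o.

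Collagen VI, the beaded filament that surrounds cells, was higher in aorta for all 3 chains. Col6a1, Col6a2 and Col6a3 had log2 fold changes of 2.30 ± 0.31, 3.14 ± 0.31 and 2.14 ± 0.31 (SE). The 3 chains summed to 1018 ± 157 CPM in vehicle aorta and 188 ± 49.4 CPM in vehicle liver (SD, n = 4 each). The order of Col6a2 and Col6a1 was not the same in all libraries, their count ratio being 0.896 and 1.38 in the n and 0.513 and 0.589 in the o livers with E2.

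Of the elastic fibre genes, 5 of 6 were higher in aorta. Eln encodes tropoelastin, the soluble unit of the elastic lamellae. It had 1857, 977, 1037 and 1356 CPM in vehicle aortas, against 75.8, 23.2, 58.0 and 59.5 CPM in vehicle livers, a log2 fold change of 4.65 ± 0.36 (SE; adjusted p = 7.01e-07). The lowest aorta library was over 10 times the highest liver library. Mfap5, a glycoprotein of microfibrils, had 138, 133, 53.4 and 82.4 CPM in vehicle aortas, against 0.267, 1.62, 0 and 0.158 CPM in vehicle livers, where a total of 18 reads were counted, 16 of them in the o2 library. As a share of all gene reads, its summed counts were 195 times higher in aorta (95% exact interval 123 to 329, counting error only). The fitted log2 fold change was 7.65 ± 0.57 (SE), and 9.31 without the o2 liver. Mfap4, which binds elastic fibres, had 205, 272, 214 and 184 CPM in vehicle aortas and 8.54, 7.72, 17.1 and 13.5 CPM in vehicle livers (log2 fold change 4.25 ± 0.37, SE). No aorta library overlapped a liver library for Eln, Mfap5 or Mfap4. Fbn1, the microfibril backbone protein fibrillin-1, had a log2 fold change of 3.53 ± 0.36, and Fbln5, which helps elastin to assemble, one of 2.98 ± 0.40 (SE).

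Emilin1, a glycoprotein at the interface of elastin and microfibrils, had 5.61, 4.95, 293 and 289 CPM in vehicle aortas and 8.8, 6.7, 279 and 179 CPM in vehicle livers. Its values overlapped between tissues and split by suffix letter in each. The log2 fold change was -0.08 ± 0.31 (SE; adjusted p = 0.834), and its sign changed with the scaling, being 0.48 when libraries were scaled to total counts.

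Both crosslinking enzymes were higher in aorta. Lox, a lysyl oxidase that oxidises lysines of collagen and elastin, had 64.8, 66.2, 121 and 26.9 CPM in vehicle aortas and 0.80, 1.52, 0.75 and 1.42 CPM in vehicle livers, a log2 fold change of 5.88 ± 0.55 (SE). Loxl1, the family member needed for elastic fibre upkeep, averaged 297 ± 303 CPM in vehicle aorta and 17.0 ± 17.8 CPM in vehicle liver (SD, n = 4 each; log2 fold change 4.09 ± 0.33, SE). Its libraries split by suffix letter, as given further on, and without the batch term its log2 fold change was 4.09 with an adjusted p of 0.0692.

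Of the proteoglycans, Bgn and Lum were higher in aorta and Dcn did not pass. Decorin (Dcn), which binds collagen fibrils and TGF-beta, had 814, 1269, 994 and 525 CPM in vehicle aortas and 502, 637, 960.5 and 747 CPM in vehicle livers. The libraries overlapped, and the log2 fold change was 0.31 ± 0.35 (SE; adjusted p = 0.478). Biglycan (Bgn), its close relative, averaged 1170.3 ± 485 CPM in aorta and 289 ± 148 CPM in liver with vehicle, and lumican (Lum) 300.5 ± 188 CPM in aorta and 59.6 ± 7.3 CPM in liver (SD, n = 4 each). Their log2 fold changes were 2.12 ± 0.41 and 2.16 ± 0.41 (SE). Without the batch term Bgn was at 1.98 (adjusted p = 0.0503) and did not pass.

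The adhesive and matricellular genes spanned the whole range of the contrast. Comp, a cartilage and tendon matrix protein also made by vascular smooth muscle, had 10.4, 16.1, 53.7 and 37.8 CPM in vehicle aortas and 0, 0, 0.188 and 0 CPM in vehicle livers. That is 2224 reads in aorta and 1 read in liver, and as a share of all gene reads a ratio of 1312 (95% exact interval 235 to 51847, counting error only). The fitted log2 fold change of 9.13 ± 0.67 (SE) depends on the prior count. It was 11.24 without the n1 liver, which holds the 1 read, 8.62 without the n2 liver, and 5.35 between the E2 libraries of the tissues. Markers of cartilage and tendon summed to 62.7 to 105 CPM in vehicle aorta, with none of 6 at 0, and 28.5 to 41.9 CPM in vehicle liver, with Tnmd and Matn3 at 0. Of the 5 such markers tested, 3 were called higher and 1 lower in aorta. Their part in the Comp result was not tested. Postn, periostin, a collagen-binding protein of remodelling tissue, had 1835, 2103, 938 and 175 CPM in vehicle aortas and 67.5, 73.6, 27.6 and 26.6 CPM in vehicle livers. The aorta libraries all lay above the liver libraries, with a log2 fold change of 4.55 ± 0.50 (SE). Tnc, tenascin-C, an anti-adhesive glycoprotein, had a log2 fold change of 4.20 ± 0.33 (SE).

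Spp1, osteopontin, a secreted phosphoprotein of bile duct epithelium and macrophages in liver, was the 1 gene of the 34 that was lower in aorta. It had 13.8, 24.4, 34.7 and 25.0 CPM in vehicle aortas, against 222, 214, 873 and 1411 CPM in vehicle livers, with no overlap and a log2 fold change of -4.46 ± 0.46 (SE; adjusted p = 8.52e-06). Macrophage markers summed to 93.1 to 179 CPM in vehicle aorta and 205 to 558 CPM in vehicle liver, with none of 6 at 0 in either tissue. Their part in the Spp1 result was not tested.

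Fn1, fibronectin, made by hepatocytes for plasma and by mesenchymal cells for the matrix, had 4468, 5268, 2551 and 1193 CPM in vehicle aortas and 3564, 3996, 609.7 and 611 CPM in vehicle livers. The tissues overlapped, and its log2 fold change of 0.96 ± 0.39 (SE) had an adjusted p of 0.0571. Within the o and within the n libraries of both treatments, however, every aorta lay above every liver for Fn1. Of 20 alternatives, 9 called Fn1 and 11 did not. Its log2 fold change was 1.32 between the E2 libraries and 1.12 over all 16 libraries, and both passed by edgeR's quasi-likelihood test. Thbs1, thrombospondin-1, an activator of latent TGF-beta, had 392, 409, 433 and 90.8 CPM in vehicle aortas and 141, 190.1, 55.0 and 125 CPM in vehicle livers. Its n2 aorta lay below 3 of the 4 livers. Its log2 fold change of 1.39 ± 0.45 (SE; adjusted p = 0.0215) lost its call without the o1 liver (adjusted p = 0.0565), without the o1 aorta (adjusted p = 0.056) or without the n1 aorta (log2 fold change 0.81, adjusted p = 0.112), and without the batch term (log2 fold change 1.35, adjusted p = 0.174).

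Mgp, matrix Gla protein, whose loss in mice calcifies the arteries, had 469.9, 984, 2148 and 2929 CPM in vehicle aortas and 3.2, 13.3, 78.6 and 62.4 CPM in vehicle livers, with a log2 fold change of 5.83 ± 0.46 (SE; adjusted p = 8.41e-07). The lowest aorta library lay above the highest liver library. Of the ADAMTS proteases, which cleave versican and aggrecan, Adamts1 was higher in aorta (2.87 ± 0.40, log2 fold change ± SE). Adamts5 had 122, 139, 23.9 and 16.0 CPM in vehicle aortas and 62.9, 40.6, 18.2 and 7.91 CPM in vehicle livers. Its adjusted p was 0.0364, with a log2 fold change of 0.97, just under the fold threshold. Adamts4 had 55.5, 34.1, 321 and 283 CPM in vehicle aortas and 41.6, 57.1, 26.3 and 42.7 CPM in vehicle livers, so its n aortas were higher than all livers and its o aortas were not. Its log2 fold change was -0.16 among o libraries alone and 2.98 among n libraries alone.

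Among vehicle libraries, every aorta lay above every liver for 21 of the 34 genes and below for 1, compared with 12.7% and 13.7% of all genes tested. Among the o libraries of both treatments, aorta lay above liver for 29 of the 34 and below for 2, compared with 26.9% and 27.6% of the genes tested. Among the n libraries the counts were 27 and 1, compared with 37.7% and 28.8%. With the E2 libraries in place of the vehicle libraries, 28 of the 34 were higher in aorta and 1 lower by the same test, compared with 26.3% and 22% of 13061 genes. Per kilobase of annotated exon (build GRCm38), Mgp had the highest mean level in aorta, at 1042 CPM per kb with E2 and 1376 CPM per kb with vehicle. Col1a1 followed with 364 CPM per kb with E2 and 383 CPM per kb with vehicle, and Col1a2 with 348 and 380.2. All annotated exons joined span 6563 bases for Col1a1 and 12426 for Col1a2. Their longest coding transcripts span 5930 and 5348 bases, so the order of these 2 chains depends on the length chosen. Mgp, Col1a1 and Col1a2 did not differ beyond their spread, the SDs being 220.3 CPM per kb or more in each group. The order of their means turned with the letter. In vehicle aortas Mgp averaged 2139 CPM per kb and Col1a2 129 CPM per kb in the n libraries. In the o libraries their means were close, at 631 CPM per kb for Col1a2 and 613 CPM per kb for Mgp. There Mgp had 469.9 CPM in o1 and 984 CPM in o2, and Col1a2 7129 and 8559 CPM, so which of them led was not settled. In liver Spp1 had the highest mean level, at 269 CPM per kb with E2 and 413 CPM per kb with vehicle, and Fn1 the next, at 176 CPM per kb with E2 and 188 CPM per kb with vehicle. Their ranges overlapped as well, and this order turned too. In the vehicle livers Spp1 averaged 693 CPM per kb in n libraries and 133 CPM per kb in o libraries, and Fn1 led the o libraries with 323 CPM per kb.

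Of 149 other matrix genes, 127 were tested between the tissues, and 69 were higher and 16 lower in aorta, read against the same 24.1% and 23.4% of all genes. Among liver libraries alone 111 of the 149 passed the filter on low counts, and a gene that passed only through aorta had to differ. Matrix receptors, mostly integrins, were higher for 9 of 12 and lower for 0, TGF-beta pathway genes for 7 of 10 and 0, and other matricellular genes for 12 of 17 and 1. Genes of collagen synthesis and processing were higher for 8 of 15 tested and lower for 2, other elastic fibre genes for 9 of 15 and 2, and basement membrane genes for 7 of 15 and 3. Other collagens were higher for 6 of 17 and lower for 2, other proteoglycans for 6 of 12 and 3, and other ADAMTS genes for 5 of 14 and 3. The largest log2 fold changes were those of Acan, the cartilage proteoglycan aggrecan (8.05 ± 0.70, SE), the matricellular gene Nov (7.84 ± 0.69) and the proteoglycan Omd (5.51 ± 0.74). The lowest were those of Adamts13, the protease of von Willebrand factor (-8.50 ± 0.84), Vtn, the plasma protein vitronectin (-8.12 ± 0.62), and the laminin chain Lama1 (-7.29 ± 0.66). Smooth muscle markers were higher in aorta for 7 of 8 and fibroblast markers for 6 of 8, and hepatocyte markers were lower for 8 of 8. Adipocyte markers were higher in aorta for 5 of 5 tested. Among liver libraries alone only 1 of the 6 passed the filter on low counts, and a marker that passed only through aorta had to differ. The adipocyte markers summed to 2013 to 4173 CPM in vehicle aorta, with none of 6 at 0, and 64.9 to 253 CPM in vehicle liver, with Lep at 0. Fibroblast markers summed to 1383 to 5527 CPM in vehicle aorta and 844 to 2242 CPM in vehicle liver, and stellate cell markers to 98.0 to 416 CPM in vehicle aorta, where Lrat was at 0, and 257 to 607 CPM in vehicle liver. Their part in the matrix differences was not tested.

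None of the 34 genes passed the threshold for E2 in aorta. By the same test, 0 of the 34 and 0 of 13698 genes tested (0%) had an adjusted p under 0.05. With the 4 suffixes as a replicate block, 12 genes passed (0.0876% of those tested), none of them among the 34, and DESeq2 called 24 genes, none of them among the 34. At an unadjusted p under 0.05 there was 1 of the 34, Mgp, and 495 genes in all (3.61%), and limma voom called 0. Log2 fold changes of the 34 ran from -0.40 to 0.32, with a median of -0.02 against -0.01 over all genes tested. E2 and vehicle libraries overlapped for all 34, as for all but 0.402% of the genes tested. Each group held both o and n libraries, so a gene that splits by letter overlaps unless an E2 effect exceeds that gap.

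Mgp had 441, 613, 1925 and 1969 CPM in the E2 aortas, against 469.9, 984, 2148 and 2929 CPM in the vehicle aortas. It was lower with E2 in 4 of 4 suffixes, and the gap between o and n libraries was larger than that between treatments. Its log2 fold change was -0.40 ± 0.17 (SE), past an unadjusted threshold of 0.05 but not the adjusted one. Mfap5 had 116, 107, 45.9 and 56.5 CPM in E2 aortas and 138, 133, 53.4 and 82.4 CPM in vehicle aortas, also lower in 4 of 4 suffixes, with a log2 fold change of -0.36 ± 0.18 (SE). Fibroblast markers had log2 fold changes below 0 for 8 of 8 with none called, and summed to 1126, 1706, 4871 and 4682 CPM in E2 aortas and 1383, 2276, 4839.9 and 5527 CPM in vehicle aortas, lower with E2 in o1, o2 and n2. Lymphocyte markers were also below 0 for 6 of 6, hepatocyte markers for 7 of 7 tested and macrophage markers for 4 of 4 tested, and mesothelial markers above 0 for 4 of 4, none called. The part of these markers in the Mgp and Mfap5 values was not tested. Comp had 8.01, 17.2, 30.9 and 35.5 CPM in E2 aortas and 10.4, 16.1, 53.7 and 37.8 CPM in vehicle aortas (-0.31 ± 0.19). Col1a1 was lower in 4 of 4 suffixes by at most 0.10 on the log2 scale, and Loxl1 higher in 4 of 4. In all, 3 of the 34 were lower and 1 was higher in every suffix, compared with 6.42% and 8.07% of the genes tested, a share near the background, and in liver 0 of the 34 were higher or lower in every suffix, compared with 5.55% and 6.38%.

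At the other end, Col15a1 had 156, 209, 429 and 340.2 CPM in E2 aortas and 195, 127, 371 and 188 CPM in vehicle aortas, a log2 fold change of 0.32 ± 0.26 (SE). Col5a1 had 243, 297, 292 and 293 CPM in E2 aortas and 257, 181, 298 and 242 CPM in vehicle aortas (0.20 ± 0.18). Both overlapped between treatments. Spp1 had 17.7, 8.08, 30.8 and 26.4 CPM in E2 aortas and 13.8, 24.4, 34.7 and 25.0 CPM in vehicle aortas. The o2 and n1 pairs were lower with E2 and the o1 and n2 pairs higher. Its log2 fold change was -0.35 ± 0.30 (SE), and 0.05 without the o2 library of either treatment. Eln, the main elastic fibre gene, had 1909.9, 1519, 1237 and 1299 CPM in E2 aortas and 1857, 977, 1037 and 1356 CPM in vehicle aortas, a log2 fold change of 0.19 ± 0.18 (SE). By role, fibrillar collagens summed to 8999 ± 5691 CPM with E2 and 9740.2 ± 6542 CPM with vehicle, elastic fibre genes to 3056 ± 885 CPM with E2 and 2803 ± 737 CPM with vehicle, and collagen VI to 1104 ± 211 CPM with E2 and 1018 ± 157 CPM with vehicle (SD, n = 4 each). Of the 149 other matrix genes, 136 were tested in aorta and 0 passed.

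**Figure D3:**
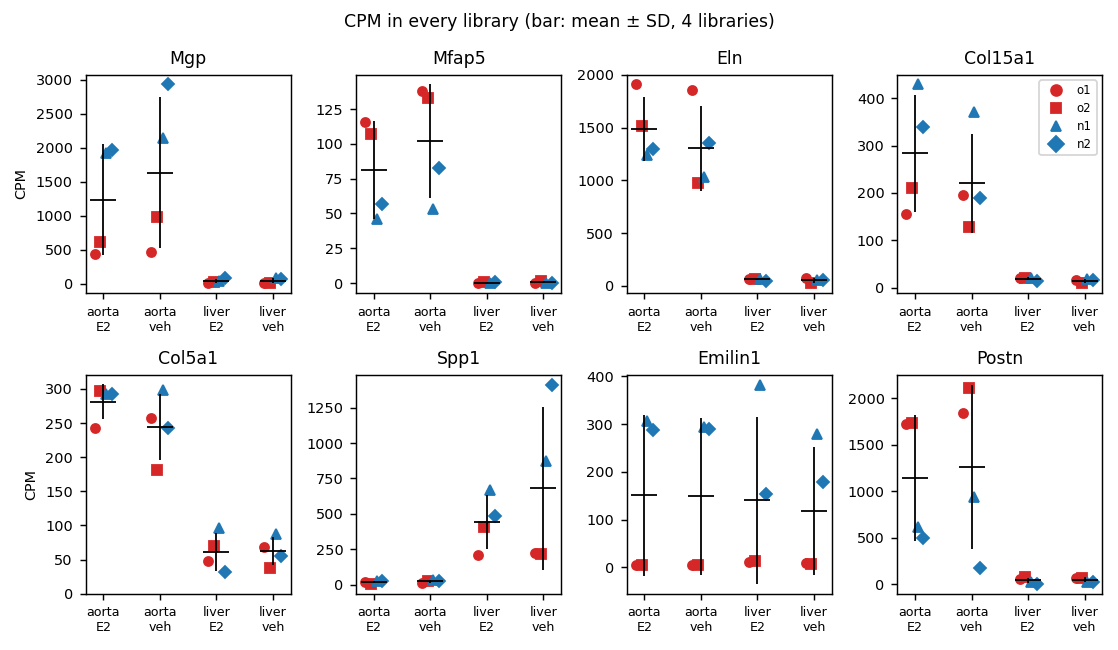
CPM of 8 genes in every library, by group, with the mean and SD of 4 libraries (line and bar). E2 and vehicle points overlap within each tissue, and red o and blue n points of Mgp, Emilin1, Postn and Spp1 lie apart in at least 1 tissue.

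The direction of the 34 genes with E2 differed from suffix to suffix, though no label says that libraries with the same suffix belong together. On log2(CPM + 1), E2 minus vehicle had a median over the 34 of -0.14 in the o1 aortas, 0.09 in the o2 aortas, -0.16 in the n1 aortas and 0.41 in the n2 aortas. In these pairs 6, 19, 6 and 27 of the 34 genes were higher with E2. All genes tested had medians of 0, 0, -0.01 and 0.05, and 49%, 49.9%, 48.6% and 54.1% of them were higher with E2. In the n2 vehicle aorta the 34 genes summed to 15886 CPM, the lowest of the aortas. It was also the library with high lymphocyte markers (12.7 CPM in the n2 aorta with E2, 174 CPM in that with vehicle). The part of these markers in the result was not tested.

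**Figure D4:**
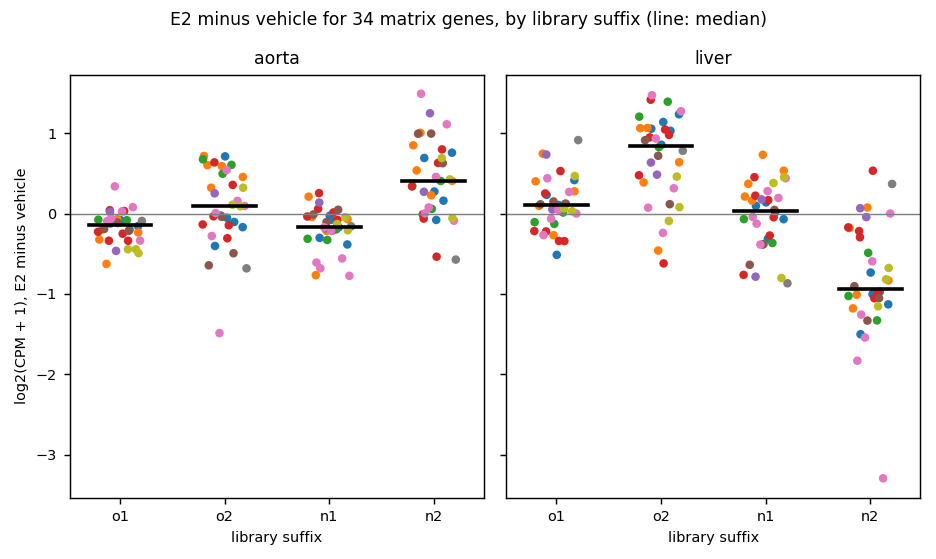
E2 minus vehicle on log2(CPM + 1) for each of the 34 genes (points, coloured by role as in the plot of tissue fold changes), by suffix, in aorta and liver; lines are medians. In aorta the n2 pair has most genes above 0 and o1 and n1 most below, while in liver the o2 pair lies above 0 and the n2 pair below.

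In liver, 0 of the 31 tested genes passed the threshold for E2, as did 0 of 11726 genes (0%; edgeR's quasi-likelihood test, smallest adjusted p over all genes = 0.939). At an unadjusted p under 0.05 there were 0 of the 31 and 502 of all genes (4.28%), and DESeq2 and limma voom called 0 of either. Mfap5, Lox and Comp were too low in liver to be tested. Log2 fold changes ran from -0.46 for Thbs1 to 0.50 for Col8a1. E2 and vehicle libraries overlapped for all 34 genes, whereas 0.358% of the genes tested did not overlap. As in aorta, a gene that splits by letter overlaps unless an E2 effect exceeds that gap.

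Emilin1 had 10.7, 13.9, 382 and 154 CPM in the E2 livers and 8.8, 6.7, 279 and 179 CPM in the vehicle livers, a log2 fold change of 0.42 ± 0.28 (SE). Col15a1 had 20.7, 19.1, 21.01 and 13.9 CPM in E2 livers and 15.5, 8.63, 18.0 and 15.8 CPM in vehicle livers (0.42 ± 0.30). For both genes the n2 pair ran the other way. Eln had 64.8, 63.7, 67.8 and 48.3 CPM in E2 livers and 75.8, 23.2, 58.0 and 59.5 CPM in vehicle livers (0.29 ± 0.27), with the o2 pair furthest apart, and its log2 fold change was -0.06 without the o2 liver with vehicle. Postn had 55.9, 77.4, 26.7 and 6.76 CPM in E2 livers and 67.5, 73.6, 27.6 and 26.6 CPM in vehicle livers (-0.35 ± 0.30). Thbs1 had 170.2, 237, 63.0 and 11.8 CPM in E2 livers and 141, 190.1, 55.0 and 125 CPM in vehicle livers (-0.46 ± 0.42). Postn and Thbs1 were both lowest in the n2 liver with E2. Thbs1 was higher with E2 in the other 3 pairs, and its log2 fold change was -0.03 without the n2 liver with E2, -0.04 without the n2 liver with vehicle and 0.31 among o libraries. Mgp had 6.91, 23.6, 42.6 and 80.7 CPM in E2 livers and 3.2, 13.3, 78.6 and 62.4 CPM in vehicle livers, with a log2 fold change of 0.29 ± 0.30 (SE). Its direction in liver was not settled: the n1 pair was lower with E2 and the other pairs higher, and the log2 fold change was -0.17 among n libraries and -0.0057 without a batch term.

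Matched suffixes disagreed in liver more than in aorta, though no label pairs them. The 34 genes summed to 3754 CPM in the n2 liver with E2, the lowest of the livers. The median over the 34 genes of E2 minus vehicle on log2(CPM + 1) was 0.10 in the o1 livers, 0.84 in the o2 livers, 0.03 in the n1 livers and -0.94 in the n2 livers. In the o2 pair 30 of the 34 were higher with E2, and in the n2 pair 29 were lower. The medians of all genes tested were 0.01, -0.04, 0.15 and -0.22, and 50.7%, 46.8%, 61.6% and 39.5% of them were higher with E2. Cell type markers also differed within the o2 and n2 pairs. In o2, stellate cell markers summed to 721 CPM with E2 and 607 CPM with vehicle, fibroblast markers to 1133 CPM with E2 and 1346 CPM with vehicle, endothelial markers to 874 CPM with E2 and 935 CPM with vehicle, and hepatocyte markers to 73774 CPM with E2 and 111904 CPM with vehicle. In n2, stellate cell markers summed to 163 CPM with E2 and 257 CPM with vehicle, fibroblast markers to 2995 CPM with E2 and 1745 CPM with vehicle, endothelial markers to 251 CPM with E2 and 493 CPM with vehicle, and hepatocyte markers to 180511 CPM with E2 and 113636 CPM with vehicle. Mesothelial markers summed to 24.4 CPM with E2 and 9.44 CPM with vehicle in o2, and to 40.2 CPM with E2 and 86.1 CPM with vehicle in n2. Smooth muscle markers summed to 317 CPM with E2 and 216 CPM with vehicle in o2, and to 438 CPM with E2 and 485 CPM with vehicle in n2. Sums of stellate cell, mesothelial and smooth muscle markers were thus higher with E2 in o2 and lower in n2, as most of the 34 genes were. The stellate cell and smooth muscle lists share Des. Cartilage and tendon markers summed to 34.5 CPM with E2 and 33.3 CPM with vehicle in o2, and to 6.76 CPM with E2 and 28.5 CPM with vehicle in n2. Lymphocyte markers summed to 7.99 CPM with E2 and 7.72 CPM with vehicle in o2, and to 45.9 CPM with E2 and 59.3 CPM with vehicle in n2. Both of these sums differed little in o2. Fibroblast and hepatocyte marker sums were lower with E2 in o2 and higher in n2. Endothelial, macrophage and adipocyte marker sums were lower with E2 in both pairs. Of the 7 fibroblast markers tested for E2 over all liver libraries, 3 had log2 fold changes above 0 and 4 below. Stellate cell markers split 3 above and 3 below, mesothelial markers 2 and 2, and smooth muscle markers 5 and 2. Hepatocyte markers were above 0 for 8 of 8, and endothelial markers for 1 of 7. The sums of the split lists thus do not speak for each marker. The part of these cell type markers in the result was not tested.

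An interaction of tissue and treatment tested whether E2 acted differently on aorta than on liver. It passed for 0 of the 34 and 0 of 14190 genes (0%; edgeR's quasi-likelihood test), with 1 of the 34 and 761 genes (5.36%) at an unadjusted p under 0.05, while DESeq2 called 10 genes and the replicate block 1 (0.00705%), none among the 34. That gene at an unadjusted p under 0.05 was Comp, at -4.13 ± 1.06 on the log2 scale (SE; adjusted p = 0.65). It rests on 19 reads in the E2 livers, at 0, 1.42, 0.611 and 0 CPM, and 1 read in the vehicle livers, a ratio of 17.6 (95% exact interval 2.80 to 733, counting error only). Mgp had a difference of -0.66 ± 0.37, Emilin1 one of -0.50 ± 0.38 and Fn1 one of 0.25 ± 0.35 (SE). Fn1 had 4553, 7666, 2199 and 1638 CPM in the E2 aortas and 3679.5, 3382, 739.8 and 404 CPM in the E2 livers. Tnc had 427, 347, 181 and 150.0 CPM in E2 aortas and 447, 346, 291 and 149.7 CPM in vehicle aortas, and 35.4, 51.9, 10.7 and 4.05 CPM in E2 livers and 25.9, 18.1, 11.8 and 11.1 CPM in vehicle livers, a difference of -0.52 ± 0.47 (SE). Col8a1, below 11 CPM in every library, had a difference of -0.75 ± 0.80 (SE).

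The letter of the suffix went with larger changes in the 34 genes than E2 did. Between n and o libraries of aorta, 8 of the 34 were higher in n and 10 lower, at an adjusted p under 0.05 and an absolute log2 fold change over 1 by edgeR's quasi-likelihood test. Over all 13698 genes 33.0% were higher and 28.1% lower, so the share called among the 34 was no higher than that over all genes. In liver 10 of 31 were higher in n and 9 lower, against 33.7% and 35.7% of 11726 genes. Library kit, instrument, RNA input and animals may all differ between the letters, and these cannot be told apart here.

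Emilin1 differed most: it had 305 and 287 CPM in the n aortas with E2 and 293 and 289 CPM in the n aortas with vehicle, against 4.23 and 4.81 CPM in the o aortas with E2 and 5.61 and 4.95 CPM in the o aortas with vehicle. The log2 fold change, n over o, was 5.78 ± 0.22 in aorta and 4.56 ± 0.32 in liver (SE). Loxl1 was higher in n by 3.91 ± 0.20 in aorta and 3.17 ± 0.39 in liver, Col4a1 by 2.86 ± 0.23 and 1.86 ± 0.28, Col18a1 by 1.86 ± 0.21 and 1.57 ± 0.25, and Mgp by 1.71 ± 0.29 and 2.41 ± 0.42 (log2 scale ± SE). Fbn1 was lower in n, at -2.87 ± 0.35 in aorta and -3.41 ± 0.32 in liver, as were Adamts5 (-2.68 ± 0.26 and -2.59 ± 0.36), Fn1 (-1.66 ± 0.30 and -2.72 ± 0.26) and Postn (-1.85 ± 0.40 and -1.76 ± 0.31). Col1a2 was at -2.36 ± 0.25 in aorta and -1.16 ± 0.33 in liver. Within the elastic fibre system, Emilin1 and Loxl1 were higher and Fbn1 lower in n in both tissues.

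**Figure D5:**
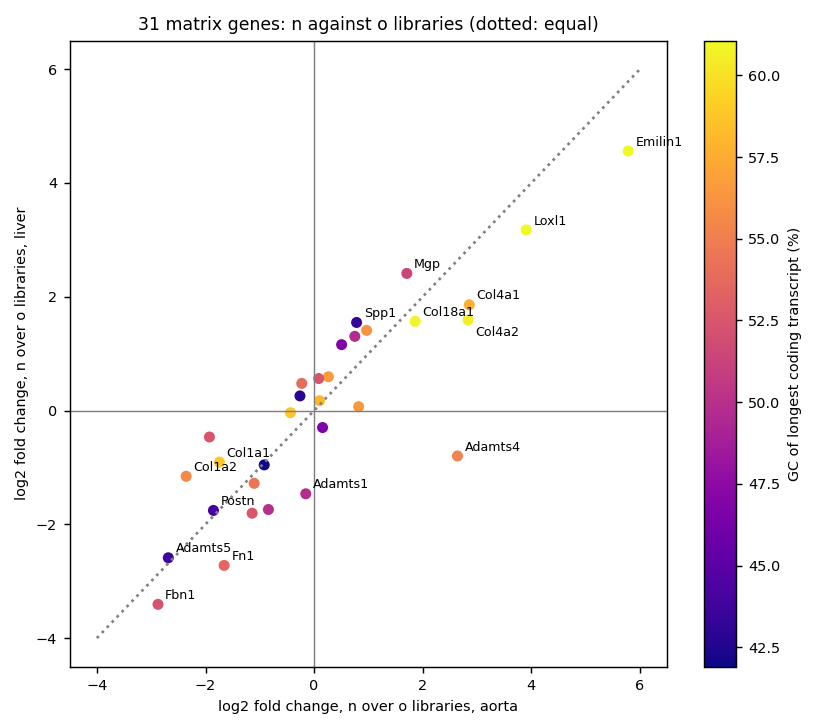
Log2 fold change of n over o libraries in aorta (horizontal) and liver (vertical) for the 31 genes tested in both, coloured by GC content of the longest coding transcript; the dotted line marks equal effects. Most genes lie near the line, and Adamts4 lies at 2.64 in aorta and -0.80 in liver.

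The letter effect differed between aorta and liver for 6 of the 34 genes (adjusted p under 0.05, interaction of tissue and letter, edgeR's quasi-likelihood test, added after the data were seen), compared with 28.9% of 14190 genes. Adamts4 differed most, by 3.46 ± 0.33 on the log2 scale (SE; adjusted p = 1.21e-05), with opposite signs. It had 278 and 271 CPM in the n aortas with E2 and 39.2 and 42.9 CPM in the o aortas with E2, but 36.3 and 26.4 CPM in the n livers with E2 and 57.9 and 60.4 CPM in the o livers with E2. In the annotation used here, exon overlaps of 14 to 2442 bases with a gene on the opposite strand were found for members that include Col5a1, Col4a1, Col4a2, Col15a1, Eln, Fbn1, Mfap4, Lox, Fn1, Thbs1 and Tnc. Reads there cannot be told apart without the strand setting.

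As a description across the genes, which share libraries and depth, the letter effect had a Spearman correlation with transcript GC content of 0.44 in aorta (34 genes) and 0.40 in liver (31 genes). GC content ran from 41.9% to 61.1%. The correlation with transcript length was -0.28 in aorta and -0.43 in liver. The same measure on the E2 log2 fold changes gave 0.42 in aorta and 0.44 in liver for GC content, and 0.45 in aorta and 0.08 in liver for length.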

How the data were processed

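Total RNA from 16 aorta or liver samples was sequenced. Per the submitters' processing notes, Bowtie 0.12.5, HTSeq 0.4.5p7, edgeR 3.4.2 and the genome build mm9 were named. The sources used here give no gene annotation or strand setting. The deposited values are raw read counts per gene symbol. They were entered as estimated counts, because each deposited column ends in a percentage, but all gene values are whole. The 8 lines that name no gene (reads in no gene made up 48.0% to 75.2%) stayed out of library sizes and tests.

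The 34 genes, the role lists, the other matrix genes and the cell type markers were chosen with earlier results of these data known. Genes named with values in every library follow a rule: the 6 genes of smallest p for E2 in each tissue and for the interaction, and between tissues the 8 largest and 6 smallest absolute log2 fold changes. Col1a1, Col1a2 and Adamts4, and some rule genes in comparisons other than their own (Col15a1 between tissues, Eln for E2 in aorta), were given such values after they were seen.

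Fits used edgeR 4.0.16 in R 4.3.3 (TMM, filterByExpr with a minimum count of 10 and total of 15, glmQLFit and glmQLFTest) over all genes, with Benjamini-Hochberg adjustment. The main fits between tissues, for E2 and for the interaction of tissue and treatment carried a batch term with levels o1, o2 and n. Fits of n against o carried treatment instead, and the interaction of tissue and letter carried the groups of tissue and treatment. SE is the absolute log2 fold change over the square root of F. DESeq2 1.42.0 and limma 3.58.1 were alternatives. Differences by suffix used log2(CPM + 1). The fit was tested on simulated data. Gene lengths and overlaps came from GENCODE M21 (GRCm38) and promoters from RefSeq GRCm38.p6, whose coordinates were not mixed with mm9. Depth limits genes of a few reads, such as Comp in liver, and intervals cover counting error only. The deviations of matched suffixes from their group means correlated at 0.893 to 0.928 in aorta and 0.870 to 0.920 in liver. Within a letter these were 0.506 (o) and 0.433 (n) in aorta, and 0.298 (o) and -0.05 (n) in liver, so the letter gives most of the agreement.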

Additional observations from a re-analysis of the deposited data

Results flagged for a closer look

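Of 136 sets of 4 libraries (34 genes in 4 groups), 7 held a library far from the other 3, where chance gives about 1 in 20 if the 4 libraries are alike. Each set held 2 o and 2 n libraries, which differed for many of the genes, so that rate may not hold here. In aorta, Col5a1 was at 243 CPM in the o1 library with E2 (the others 292 to 297 CPM), Col5a2 at 277 CPM in the n1 library with vehicle (97.7 to 127 CPM), and Thbs1 at 90.8 CPM in the n2 library with vehicle (392 to 433 CPM). In liver, Col4a2 was at 132 CPM (30.0 to 47.0 CPM) and Fbln5 at 36.8 CPM (19.9 to 21.3 CPM) in the n1 library with E2. Mfap5 was at 1.62 CPM in the o2 liver with vehicle (0 to 0.267 CPM), and Comp at 0.188 CPM in the n1 liver with vehicle (0 CPM in the others), which is 1 read.

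For 6 of the 34 genes, against 28.9% of 14190 genes, the n over o log2 fold change differed between aorta and liver by the interaction test (aorta minus liver): Adamts4 3.46, with opposite signs, Adamts1 1.36, Emilin1 1.24, Col4a2 1.24, Fn1 1.10 and Col3a1 -1.46.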

How the results depend on the processing

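The count of the 34 genes higher in aorta was 26, with 21 to 30 over all alternatives: 27 with the replicate block, 21 without a batch term, and 25 to 28 when 1 library was left out. The counts for E2 and for the interaction were 0 under every alternative run, leave-outs and replicate block included, and those of n against o were 17 to 20 in aorta and 17 to 21 in liver. The block changed no E2 call of the 34 genes. Over all alternatives, 622 of 680 tissue values and 362 of 372 E2 and interaction values of single genes kept direction and side of the threshold. Scaling libraries to total counts, chosen after seeing the data, moved the median of all genes between the tissues to 0.62, against 0.05, and the calls to 4661 higher and 2025 lower (69.7% higher), against 3032 and 2954 (50.65%). Without a batch term, Col4a1 (log2 fold change 2.04), Col4a2 (2.18), Loxl1 (4.09), Bgn (1.98) and Thbs1 (1.35) lost their tissue call. Adamts5, Fn1, Adamts4 and Col8a1 gained one under several alternatives, among them leaving out 1 library: Fn1 without the o1 or o2 liver (1.30 and 1.28) or the o1 aorta (1.32), Adamts4 without the o2 liver (2.36) or the o2 aorta (2.26), Adamts5 without the n1 liver (1.42) or the n2 aorta (1.16), and Col8a1 without the n2 aorta (1.85), all with vehicle. Signs turned as follows, and the cause was not tested. Between tissues, Emilin1 was at 0.10 by limma voom, 0.054 with Rn45s left out, 0.28 without a batch term, 0.20 among n libraries, 0.48 on total counts and -0.21 to 0.20 with 1 library left out. Adamts4 was at -0.16 among o libraries, Dcn at -0.32 among n libraries and Col18a1 at 0.24 on total counts. For E2 in aorta, Spp1 ran from -0.56 to 0.053 with 1 library left out. For E2 in liver, Mgp was at -0.0057 without a batch term and -0.17 among n libraries, Thbs1 at 0.31 among o libraries, and Eln at -0.034 among n libraries and -0.094 to 0.48 with 1 library left out. For the interaction among n libraries, Tnc was at 0.17 and Col8a1 at 0.00356. Fewer libraries enter the fits within a letter. Without a library, Comp's interaction ran from -6.64 to -2.45. Depth limits Comp, Mfap5, Lox and Col8a1 in liver.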
